A study of Homo sapiens with 6 samples.

Results

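EGR1 and 9 other genes that lie downstream of the RAS-ERK signalling cascade were followed through 4 RNA-seq libraries from human esophageal adenocarcinoma cells. The genes were chosen by symbol, with earlier results of these libraries known: EGR1, FOS, FOSL1, IER3, DUSP4, DUSP5, DUSP6, SPRY2, SPRY4 and PHLDA1. Each symbol matched 1 row, so that 10 of the 37493 gene identifiers in the count tables are described here. EGR1 was picked because it was lower after siPPARG in both lines, and the differences between siPPARG and control are therefore given as a description, without a test.

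The groups were OE33 cells transfected with an siRNA against PPARG (OE33 siPPARG), OE33 cells given a non-silencing siRNA (OE33 control), and Eso26 cells treated in the same 2 ways (Eso26 siPPARG and Eso26 control). Lipofectamine RNAiMAX carried the siRNA into all 4 cultures. OE33 was kept in DMEM and Eso26 in RPMI-1640, each with 10% fetal bovine serum, so line and medium cannot be told apart. PPARG is a nuclear receptor, and the study's title links it to master regulator factors and fatty acid synthesis.

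The ERK cascade carries signals from growth factor receptors through RAS, RAF and MEK to the ERK kinases. Active ERK switches on immediate early genes such as EGR1 and FOS within minutes, largely through serum response factor (SRF) and its partners at their promoters. It also induces genes that damp the pathway: the DUSP phosphatases remove phosphate from ERK, and the Sprouty proteins act between receptor and RAF. The mRNA level of these feedback genes is often read as a gauge of ERK output.

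Each group had 1 library, with totals between 16866996 and 23019840 counts. There is thus no spread between replicates, and every interval below is a 95% counting interval that leaves out the variation between cultures. CPM is a count scaled to the size of its library after TMM normalisation, and a gene was kept in a comparison if it reached 5 CPM in at least 1 of its 2 libraries. Of the 10 genes, 9 were kept in OE33 (all but FOS), 7 in Eso26 (all but FOS, DUSP5 and DUSP6) and 9 between the controls (all but FOS). Epithelial markers summed to between 5005 and 9351 CPM in the 4 libraries. The fibroblast, immune, endothelial and fat cell lists each summed to between 0 and 8.34 CPM. CD3E, KDR, ADIPOQ, FABP4 and LEP had 0 counts in every library, whereas COL1A1 (fibroblast) was kept in Eso26 and CD14 (immune) in OE33. Mitochondrial genes took 0.664% of counts in OE33 siPPARG and 0.533% in OE33 control, against 2.75% in Eso26 siPPARG and 2.80% in Eso26 control.

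The targeted gene checks the labels. PPARG had 313 counts in OE33 siPPARG and 2156 in OE33 control, a ratio of 0.136 (interval 0.120 to 0.153). It had 201 counts in the Eso26 library labelled siPPARG and 259 in Eso26 control, a ratio of 0.843 whose interval of 0.698 to 1.02 includes 1. A lower PPARG level was therefore not detectable in Eso26 at this depth, and Eso26 siPPARG below means the library so labelled.

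EGR1 (ENSG00000120738), a zinc finger transcription factor, was the gene of the group that stood lowest against its control in both lines. It had 264 counts (14.6 CPM, interval 12.9 to 16.5) in OE33 siPPARG and 1075 counts (63.5 CPM, interval 59.8 to 67.4) in OE33 control. In Eso26 it had 371 counts (17.8 CPM, interval 16.0 to 19.7) in siPPARG and 845 counts (37.3 CPM, interval 34.8 to 39.9) in control. The controls lay above the siPPARG libraries in both lines, and the OE33 control was the highest of the 4. The siPPARG libraries of the 2 lines were not compared with each other.

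Relative to control, EGR1 stood at 0.230 in OE33 siPPARG (interval 0.200 to 0.263) and at 0.477 in Eso26 siPPARG (interval 0.421 to 0.540). Its log2 fold of -2.11 was the 5th lowest of 10527 kept genes in OE33, and its log2 fold of -1.06 was the 9th lowest of 10443 in Eso26. The log2 ratio in OE33 was lower than that in Eso26 by a difference of -1.06, with a counting interval from -1.32 to -0.79. Whether the lines differ beyond the variation between cultures was not tested.

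The sequence just upstream of EGR1 is shown because it carries the SRF sites through which ERK is known to act on this gene. It is the 250 bases before the RefSeq start (GRCh38.p14, chr5:138465229-138465478, plus strand), with matches to the CArG box, the core of the serum response element, in capitals. The same stretch of FOS, the other classic immediate early gene (GRCh38.p14, chr14:75278578-75278827, plus strand), is set beside it with TGACG, the core of the cyclic AMP response element, in capitals.
EGR1: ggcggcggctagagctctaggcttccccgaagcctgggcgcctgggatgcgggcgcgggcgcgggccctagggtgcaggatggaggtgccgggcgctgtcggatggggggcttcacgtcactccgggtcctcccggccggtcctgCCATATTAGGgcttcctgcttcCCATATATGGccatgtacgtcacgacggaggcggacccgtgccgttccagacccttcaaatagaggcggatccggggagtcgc
FOS: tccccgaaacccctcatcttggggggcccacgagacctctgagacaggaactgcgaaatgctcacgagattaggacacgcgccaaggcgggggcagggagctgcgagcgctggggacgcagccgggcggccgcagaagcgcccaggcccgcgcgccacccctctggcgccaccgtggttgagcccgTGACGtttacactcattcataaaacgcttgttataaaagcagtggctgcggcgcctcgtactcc
The EGR1 stretch holds 2 CArG boxes, at bases -105 to -96 and -83 to -74 before the start, and the FOS stretch has no match in these 250 bases. Bases further upstream were not searched, so FOS is not shown to lack a CArG box. FOS has 1 TGACG, at bases -64 to -60, and EGR1 has 2, at -135 to -131 and -66 to -62, none of them overlapping a CArG box.

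Of the 10 genes, 6 matched the RefSeq promoter table, with 8 upstream stretches in all (EGR1, FOS, DUSP6, SPRY4 and PHLDA1 with 1 each and SPRY2 with 3). Both strands were searched for 6 motifs. A CArG box was in 1.16% of all 35116 stretches of the same length and, within this group, in that of EGR1 alone. TGACG was in 21.2% of all stretches and in those of EGR1, FOS, SPRY2 and SPRY4. The EGR site GCGNGGGCG was in 8.41% of all and in those of EGR1, SPRY2 and SPRY4. No stretch of the group held the letters CCGGAAG (an ETS site, 8.52% of all), TGANTCA (an AP-1 site, 6.57%) or AGGTCA (a nuclear receptor half-site, 12.1%). Other spellings of these sites were not searched, so the stretches are not shown to lack them. A match describes letters in this window, not binding, and the lack of a match says nothing of bases outside the window.

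FOS (ENSG00000170345), the partner of JUN in the AP-1 factor, had few counts in every library. It had 13 counts (0.718 CPM) in OE33 siPPARG and 32 (1.89 CPM) in OE33 control, a ratio of 0.380 (interval 0.183 to 0.744). In Eso26 the 34 counts (1.63 CPM) in siPPARG and 48 (2.12 CPM) in control gave a ratio of 0.770 whose interval of 0.481 to 1.22 includes 1. FOS lay under the 5 CPM filter in all 4 libraries, and its lowest library was OE33 siPPARG.

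FOSL1 (ENSG00000175592) encodes FRA-1, an AP-1 subunit that sustained ERK activity induces. It had 4735 counts (262 CPM) in OE33 siPPARG and 4505 (266 CPM) in OE33 control, against 167 counts (8.01 CPM) in Eso26 siPPARG and 298 (13.1 CPM) in Eso26 control. The ratio was 0.983 in OE33 (interval 0.943 to 1.02) and 0.609 in Eso26 (interval 0.501 to 0.739). FOSL1 thus stood level in OE33 within counting error and was lower past 1.5-fold in Eso26, where its log2 fold of -0.71 was the 51st lowest. The log2 ratio in OE33 minus that in Eso26 was 0.69 (counting interval 0.41 to 0.97).

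IER3 (ENSG00000137331), an immediate early gene linked to cell survival and ERK signalling, was lower in the siPPARG library of each line. It had 9232 counts (510 CPM) in OE33 siPPARG and 11179 (661 CPM) in OE33 control, a ratio of 0.772 (interval 0.751 to 0.794). In Eso26 it had 324 counts (15.5 CPM) in siPPARG and 518 (22.9 CPM) in control, a ratio of 0.680 (interval 0.590 to 0.783).
PHLDA1 (ENSG00000139289), a pleckstrin homology-like protein that is part of published ERK output signatures, went the same way. Its counts were 12843 (709 CPM) in OE33 siPPARG and 14785 (874 CPM) in OE33 control, a ratio of 0.812 (interval 0.793 to 0.832), and 887 (42.5 CPM) in Eso26 siPPARG and 1408 (62.1 CPM) in Eso26 control, a ratio of 0.685 (interval 0.629 to 0.745). EGR1, IER3 and PHLDA1 were the 3 genes of the group whose intervals lay below 1 in both lines, as did those of 10.0% of the 9588 genes kept in both.

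**Figure D1:**
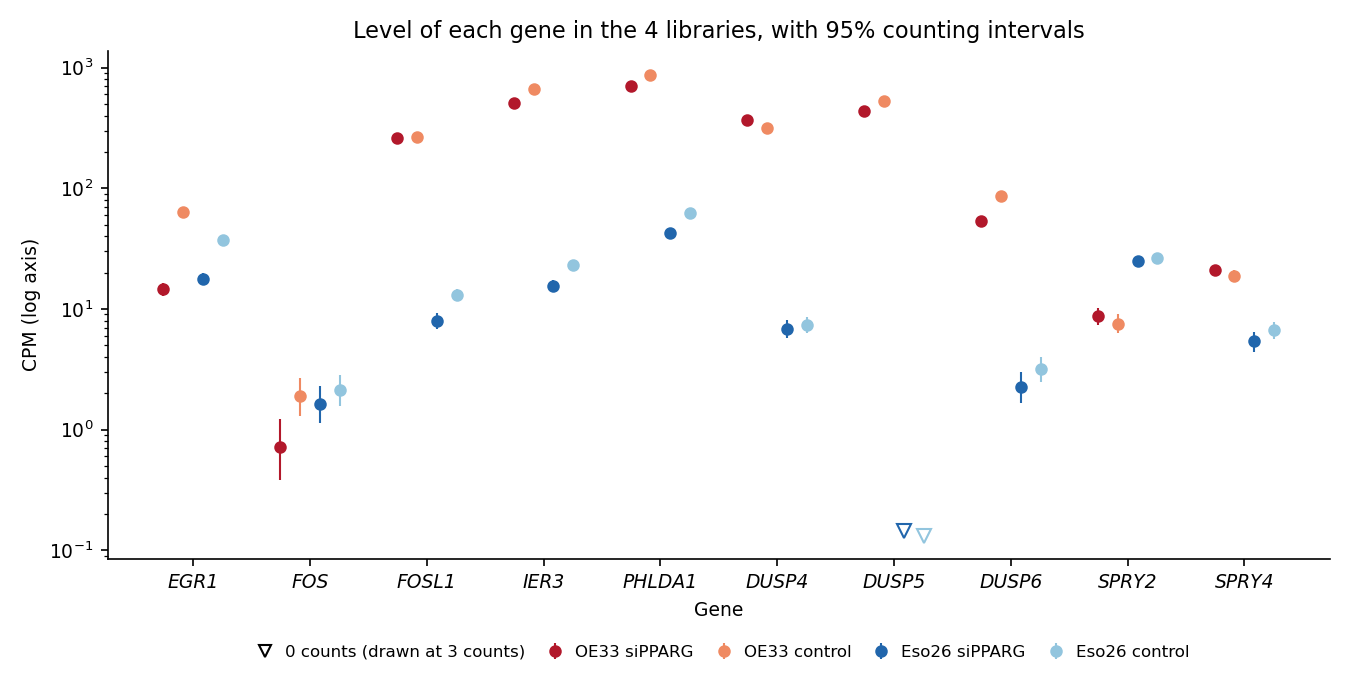
Level of each gene in CPM on a log axis in OE33 siPPARG, OE33 control, Eso26 siPPARG and Eso26 control, with 95% counting intervals where they exceed the point. FOSL1, IER3, PHLDA1, DUSP4, DUSP5 and DUSP6 lie far higher in OE33 than in Eso26, EGR1 lies lower in siPPARG than in control in both lines, and open triangles mark 0 counts of DUSP5 in Eso26, drawn at 3 counts.

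The ERK phosphatases differed among themselves. DUSP6 (ENSG00000139318) encodes the cytoplasmic phosphatase MKP-3, which is specific for ERK, and had 972 counts (53.7 CPM) in OE33 siPPARG and 1473 (87.0 CPM) in OE33 control. Its ratio of 0.617 (interval 0.568 to 0.669) was past 1.5-fold, and its log2 fold of -0.70 was the 146th lowest in OE33. In Eso26 it was under the filter, with 47 counts (2.25 CPM) in siPPARG and 72 (3.18 CPM) in control, a ratio of 0.709 (interval 0.481 to 1.04).

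DUSP5 (ENSG00000138166), a nuclear ERK phosphatase, had 7954 counts (439 CPM) in OE33 siPPARG and 8912 (527 CPM) in OE33 control, a ratio of 0.834 (interval 0.809 to 0.860). Both Eso26 libraries held 0 counts of DUSP5, for which a limit of 3 counts was used, equal to 0.144 CPM in Eso26 siPPARG and 0.132 CPM in Eso26 control. DUSP4 (ENSG00000120875), which encodes the nuclear phosphatase MKP-2, went the other way in OE33, with 6631 counts (366 CPM) in siPPARG and 5352 (316 CPM) in control, a ratio of 1.16 (interval 1.12 to 1.20). In Eso26 it had 142 counts (6.81 CPM) in siPPARG and 168 (7.41 CPM) in control, and the interval of its ratio of 0.919 includes 1 (0.729 to 1.16). In OE33, then, DUSP6 was lower, DUSP5 slightly lower and DUSP4 slightly higher in siPPARG.

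SPRY2 and SPRY4 belong to the Sprouty family, whose products inhibit receptor tyrosine kinase signalling, and neither differed beyond counting error in either line. SPRY2 (ENSG00000136158) had 157 counts (8.67 CPM) in OE33 siPPARG and 128 (7.56 CPM) in OE33 control, a ratio of 1.15 (interval 0.902 to 1.46), and 522 (25.0 CPM) in Eso26 siPPARG and 596 (26.3 CPM) in Eso26 control, a ratio of 0.952 (interval 0.845 to 1.07). SPRY4 (ENSG00000187678) had 381 counts (21.0 CPM) in OE33 siPPARG and 320 (18.9 CPM) in OE33 control, a ratio of 1.11 (interval 0.957 to 1.30). In Eso26 SPRY4 had 112 counts (5.37 CPM) in siPPARG and 151 (6.66 CPM) in control, a ratio of 0.806 (interval 0.626 to 1.04). The Eso26 interval of SPRY4 includes 1, and it also includes the ratio of IER3 in that line.

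**Figure D2:**
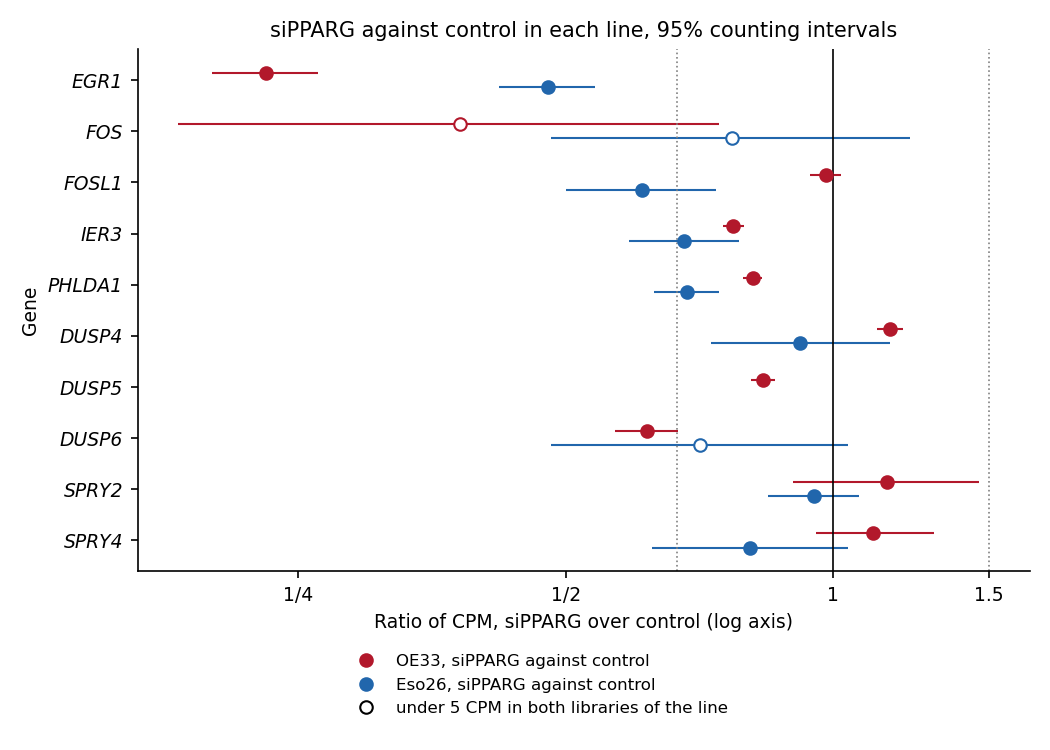
Ratio of siPPARG to control for each gene in OE33 and in Eso26 on a log axis, with 95% counting intervals and dotted lines at 1.5-fold. EGR1 lies furthest left in both lines (0.230 in OE33 and 0.477 in Eso26), open points are genes under 5 CPM in both libraries of the line, and DUSP5 has no Eso26 value.

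Genes of the group past 1.5-fold were counted beside the share of all kept genes past the same fold. In OE33, EGR1 and DUSP6 were lower past 1.5-fold and none of the 9 kept genes was higher, where 2.38% of all kept genes were lower and 3.26% higher past that fold. In Eso26, EGR1 and FOSL1 were lower and none of the 7 was higher, against 1.15% and 1.25% of all kept genes. Without a scaling factor the Eso26 split over all genes was 83 lower and 170 higher in place of 120 and 131, and the same 2 genes of the group were past the fold. Among the kept genes of the group, EGR1 was the only one past 2-fold in either line. FOS, which is under the filter, was also past 2-fold in OE33 (ratio 0.380), and with a 1 CPM filter or none it brought the OE33 count of genes lower past 1.5-fold to 3. Over all kept genes, 0.418% were lower and 1.04% higher past 2-fold in OE33, and 0.144% and 0.0575% in Eso26. EGR1 was also the only kept gene of the group lower past 1.5-fold in both lines, as were 0.115% of genes kept in both.

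Small differences were counted by the interval alone. In OE33, 5 of the 9 kept genes had an interval below 1 (25.8% of all kept genes) and 1 had an interval above 1 (24.8%). In Eso26, 4 of the 7 kept genes lay below 1 (29.6%) and none lay above (23.6%). The median log2 fold of the kept genes was -0.26 in OE33 and -0.55 in Eso26, where the median over all kept genes was -0.01 in each line. These medians describe genes that were chosen on this contrast, and nothing is read from them.

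For 8 of the 10 genes, all but EGR1 and FOS, the 2 control libraries differed by more than siPPARG differed from control in either line. Of the 9 genes kept between the controls, 8 were higher in OE33 control than in Eso26 control, as were 50.4% of all kept genes. Past 2-fold, 7 were higher and 1 was lower, against 21.1% and 16.6% of all kept genes. DUSP5 and DUSP6 were under 5 CPM in Eso26 control (0 and 3.18 CPM) and were kept through OE33 control alone, which fixed their direction. The genes were chosen with earlier results of these libraries known, so these counts only describe them. The median log2 fold of OE33 control against Eso26 control was 4.38, against 0.01 over all kept genes. Together the 10 genes made up 2822 CPM in OE33 control and 181 CPM in Eso26 control.

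Between the controls, DUSP5 and DUSP4 stood furthest apart of the group. DUSP5, with 8912 counts in OE33 control and 0 in Eso26 control, was at least 4115-fold higher in OE33 when the Eso26 library is set at that limit of 3 counts, and it had the highest log2 fold of 11205 kept genes. DUSP4 was 44.1-fold higher (interval 37.8 to 51.8) and DUSP6 28.3-fold higher (interval 22.4 to 36.4). IER3 was 29.9-fold (interval 27.4 to 32.7), FOSL1 20.9-fold (interval 18.6 to 23.6) and PHLDA1 14.5-fold (interval 13.8 to 15.4) higher in OE33 control. Past 16-fold, 4.18% of all kept genes were higher, and 5 of the 9 genes were: DUSP4, DUSP5, DUSP6, IER3 and FOSL1. Of these, DUSP5 and DUSP6 were kept through OE33 control alone.

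EGR1, FOS, SPRY2 and SPRY4 lay closer together in the 2 controls or went the other way. EGR1 was 1.76-fold higher in OE33 control (interval 1.61 to 1.93), and the ratio of FOS was 0.923 with an interval of 0.571 to 1.47. SPRY4 was 2.94-fold higher (interval 2.41 to 3.59), whereas SPRY2 stood at 0.297 times its Eso26 control level (interval 0.244 to 0.361), the single kept gene of the group that was lower in OE33.

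Several other lists were also higher in OE33 control. Over all kept genes, 50.4% were higher in OE33 control, 21.1% higher past 2-fold and 16.6% lower past 2-fold. Of the 16 other ERK output genes kept, 15 were higher in OE33 control and 14 were past 2-fold, with a median of 2.70 on the log2 scale. The cyclin D1 gene CCND1 had 8004 counts in OE33 control and 939 in Eso26 control. Among the EGF receptor ligands 4 of 5 kept genes were higher past 2-fold, and EREG had 42136 counts in OE33 control and 35 in Eso26 control. In all these lists, any kept gene under 5 CPM in Eso26 control, such as EREG, was kept through OE33 control alone, which fixed its direction. The cascade itself was closer, with 4 of 23 genes higher and 3 lower past 2-fold and a median of 0.26. All 14 interferon-stimulated genes were likewise higher in OE33 control, 11 of them past 2-fold, with a median of 2.59.

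**Figure D3:**
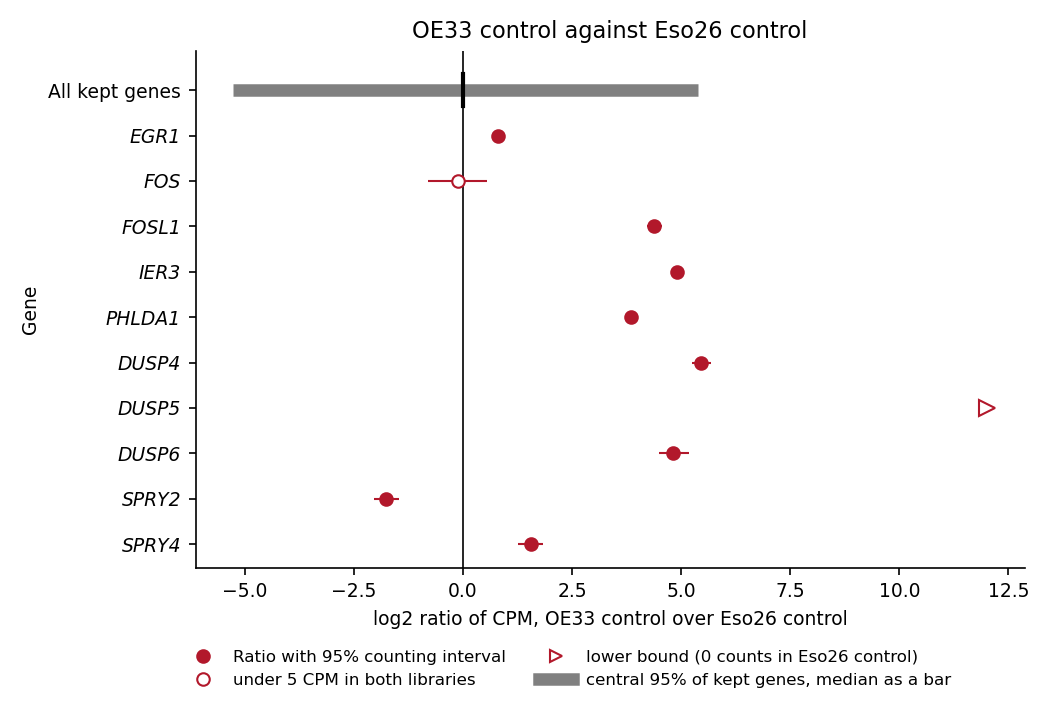
Log2 ratio of OE33 control to Eso26 control for each gene, with 95% counting intervals, below the central 95% and the median of the 11205 kept genes. DUSP5 is drawn at its lower bound of 4115-fold. SPRY2 is the kept gene on the left of 0. FOS, an open point under 5 CPM in both libraries, also lies left of 0, with an interval that includes 0.

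The order of the 4 libraries followed the line for most genes. FOSL1, IER3, PHLDA1, DUSP4, DUSP5, DUSP6 and SPRY4 had their 2 highest levels in OE33, and SPRY2 its 2 highest in Eso26. EGR1 and FOS had both controls above both siPPARG libraries instead, FOS with overlapping intervals among its 3 highest. The siPPARG and control libraries did not differ beyond counting error for FOSL1 in OE33, for FOS, DUSP4 and DUSP6 in Eso26, and for SPRY2 and SPRY4 in both lines.

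The genes most like EGR1 were sought by the distance over 3 values: the log2 folds of siPPARG against control in each line and the log2 fold between the controls. Among 9582 genes with all 3 values, the nearest were LYPLA1 (distance 1.07), NRAS (1.22), PYROXD1 (1.34), FREM2 (1.36) and DPY19L1 (1.36). None was as low as EGR1 in either line. LYPLA1, which encodes a thioesterase that removes palmitate from proteins, had a log2 fold of -1.33 in OE33 and -0.40 in Eso26. NRAS, one of the RAS genes at the head of the cascade, had a log2 fold of -1.61 in OE33 and -0.35 in Eso26. FOS, DUSP5 and DUSP6 were not kept in every comparison, so they had no distance and could not be among the 5. None of the rest of the group was among them.

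**Figure D4:**
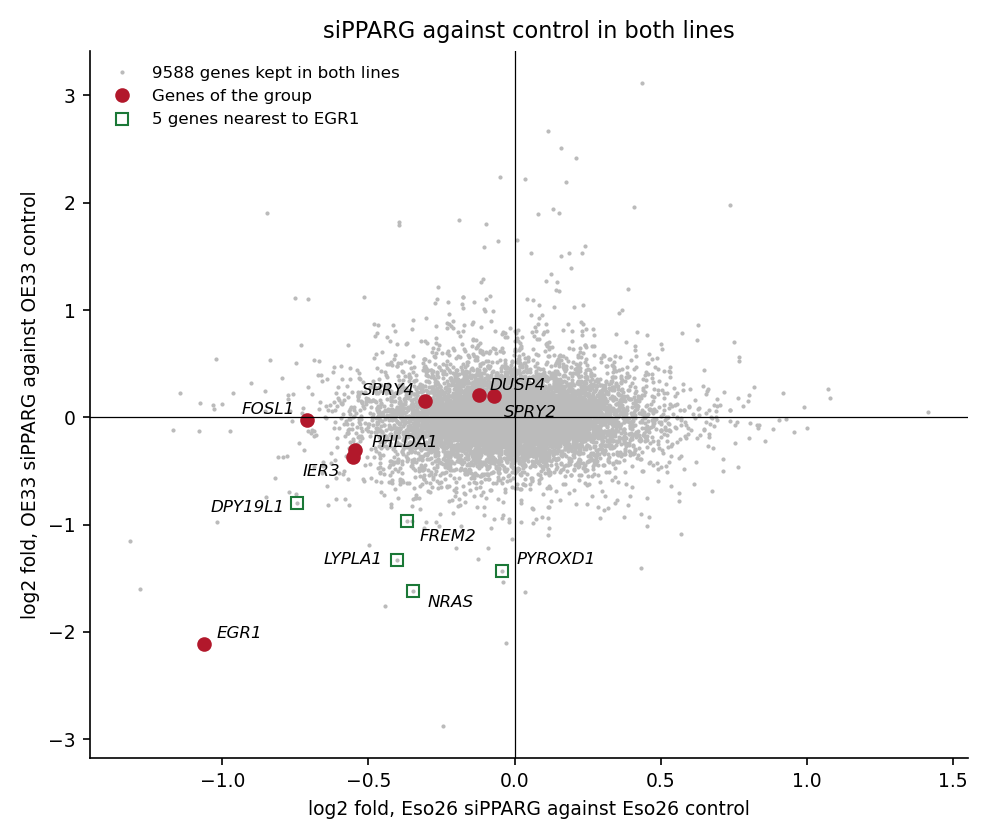
Log2 fold of siPPARG against control in Eso26 (horizontal) and OE33 (vertical) for the 9588 genes kept in both lines (grey), with the genes of the group kept in both in red and the 5 genes nearest to EGR1 as green squares. EGR1 lies at -1.06 and -2.11, and the other red points lie between 0.21 and -0.37 on the OE33 axis.

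Other parts of the pathway were read from 7 further lists. The cascade itself had 23 of 23 genes kept in OE33, where 2 were lower past 1.5-fold, none was higher and the median was 0.02 on the log2 scale. One of those lower was NRAS, with 1237 counts in siPPARG and 3546 in control (ratio 0.326, interval 0.305 to 0.348). In Eso26 none of the 23 was past 1.5-fold and the list's median was 0.00. MAPK3, which encodes an ERK kinase, stood there at 1.32 (interval 1.21 to 1.43).

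Of 31 other immediate early genes, 22 were kept in OE33, 2 of them lower and 3 higher past 1.5-fold, and their median was 0.12 on the log2 scale. JUNB, an AP-1 subunit gene, had 1856 counts in OE33 siPPARG and 2724 in OE33 control (ratio 0.637, interval 0.600 to 0.676). CCN1, a matricellular protein gene that responds to serum, went the opposite way with 3583 counts in OE33 siPPARG and 1561 in OE33 control (ratio 2.15, interval 2.02 to 2.28), and ATF3 stood at 1.64 (interval 1.42 to 1.91). KLF6, a zinc finger factor gene, had 7060 counts in OE33 siPPARG and 4221 in OE33 control. Of the 22, 8 had a log2 fold below 0, as did 51.3% of all kept genes. In Eso26, 20 were kept, 1 was lower past 1.5-fold and none was higher, and the median was -0.17.

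Of 20 other ERK output genes, 16 were kept in OE33, of which 2 were lower and 2 higher past 1.5-fold (median log2 fold 0.08). ETV1, an ETS factor gene, had 172 counts in OE33 siPPARG and 380 in OE33 control (ratio 0.423, interval 0.351 to 0.508), while SPRY1, a further Sprouty gene, stood at 1.68 (interval 1.37 to 2.06). In Eso26, 12 were kept, 11 had a log2 fold below 0 where 51.4% of all kept genes did, 3 were lower past 1.5-fold and the median was -0.41. ERRFI1, a feedback inhibitor of the EGF receptor, had 652 counts in Eso26 siPPARG and 1282 in Eso26 control (ratio 0.553, interval 0.502 to 0.608), and stood at 1.04 (interval 1.01 to 1.07) in OE33. EPHA2, an ephrin receptor gene, had 2038 counts in Eso26 siPPARG and 3661 in Eso26 control (ratio 0.605, interval 0.573 to 0.639), and in OE33 6462 counts in siPPARG and 6238 in control.

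The remaining MAPK phosphatases included both directions in OE33. Of 8, 7 were kept there and their log2 folds had a median of 0.48, with DUSP2 lower past 1.5-fold (ratio 0.657, interval 0.521 to 0.827) and DUSP8 higher (ratio 1.70, interval 1.43 to 2.03). In Eso26 6 were kept, none past 1.5-fold, and their median was -0.03 (0.01 without a scaling factor). Of the 8 EGF receptor ligands, 5 were kept in OE33 (median log2 fold 0.10) and 3 in Eso26 (median 0.00). The Eso26 median rests on few genes and was -0.51 with a 1 CPM filter, -0.53 with no filter and -0.22 with a 10 CPM filter. In OE33 1 was lower past 1.5-fold and none higher: EREG (epiregulin) had 29332 counts in siPPARG and 42136 in control (ratio 0.651, interval 0.641 to 0.661). In Eso26 EREG was under the filter, with 8 counts in siPPARG and 35 in control. AREG (amphiregulin) had 907 counts in Eso26 siPPARG and 2015 in Eso26 control (ratio 0.489, interval 0.452 to 0.529) and stood at 1.06 (interval 1.03 to 1.09) in OE33. TGFA, a further ligand gene, was 1.52 times its control in Eso26 (interval 1.27 to 1.81).

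The list of serum response factor and its partners held 9 genes, all kept. It is not limited to factors that act at CArG boxes, since it includes NAB2 and CREB1. None of the 9 genes was past 1.5-fold in OE33, where the list had a median of 0.05. In Eso26 8 of the 9 had a log2 fold below 0, with a median of -0.22, and ELK4, an ETS partner of SRF, was lower past 1.5-fold (738 counts in siPPARG and 1220 in control, ratio 0.657, interval 0.599 to 0.721). NAB2, a corepressor of EGR1 that EGR1 is known to induce, stood at 0.874 in OE33 (interval 0.742 to 1.03) and 0.693 in Eso26 (interval 0.559 to 0.857). Of 10 actin cytoskeleton genes that SRF is known to drive, 7 were kept and none was past 1.5-fold in either line, with medians of 0.14 in OE33 and 0.00 in Eso26.

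Of the other lists, the interferon-stimulated genes had the highest median log2 fold of siPPARG against control in OE33. All 14 interferon-stimulated genes were higher past 1.5-fold in OE33 siPPARG (median log2 fold 1.56), among them RSAD2 at 3448 counts in siPPARG and 470 in control. In Eso26 12 were kept, none of them past 1.5-fold, and their median was -0.06. The part of the interferon-stimulated genes' response in the OE33 values of EGR1 and the other genes was not tested.

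**Figure D5:**
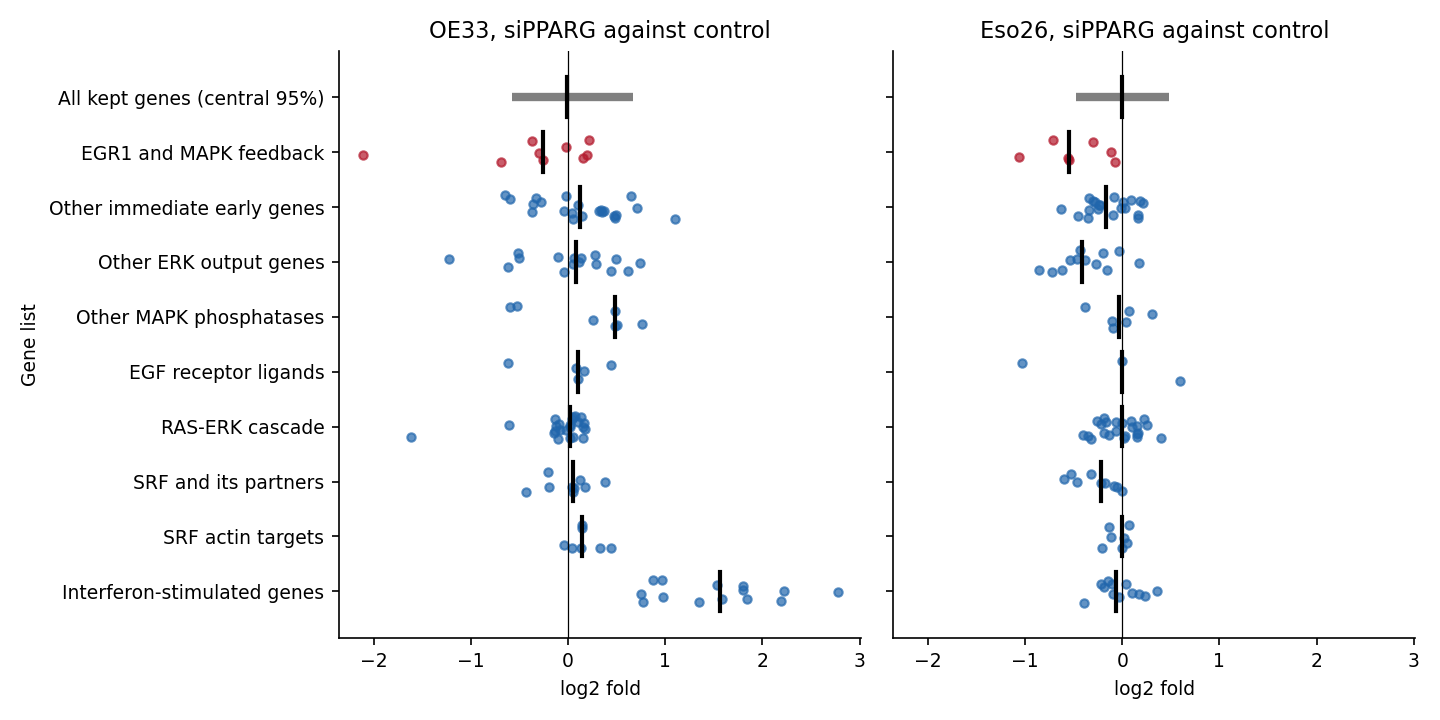
Log2 fold of siPPARG against control in OE33 (left) and Eso26 (right) for the kept genes of each list, with black bars at the medians and the central 95% of all kept genes in grey. EGR1 is the leftmost point of its row in both panels, and the interferon-stimulated genes lie at a median of 1.56 in OE33 and -0.06 in Eso26.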

How the data were processed

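The deposited expression files hold unnormalised read counts by gene, per the file headers and the values, which are whole and sum differently by library. Each table has 1 column per condition, although the series' text speaks of triplicates. The submitters' processing notes list MACS2, Picard, Bowtie, STAR and Trim Galore, and hg19 as the build, without roles. The counting program and its handling of strand and shared reads are not stated. Repeated identifiers (40 of 37533 rows) were summed. CYR61, CTGF, MKL1 and MKL2 were matched as CCN1, CCN2, MRTFA and MRTFB through RefSeq synonyms. The PPARG peak lists were not used here, since no hg19 annotation was at hand.

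Counts were scaled with TMM within each comparison (edgeR 4.0.16, R 4.3.3), so ratios between controls depart slightly from the quotient of the printed CPM. A log2 fold is a difference of log2 CPM with a prior count of 2. Ratios use unmodified CPM with exact conditional binomial (Clopper-Pearson) 95% intervals, and CPM has exact Poisson intervals (SciPy 1.17.1), with a limit of 3 counts for a count of 0. Differences of log2 ratios between lines have normal-approximation intervals. With 1 library a group no test was made. Folds and intervals were tested on simulated data. DESeq2 1.42.0 size factors were an alternative.

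The genes, lists and rules were chosen with earlier results of these data known. Most genes named from other lists are among up to 4 kept genes of each with the largest absolute log2 folds within a line. CCND1 was an exception and was chosen after its values were seen. The cell type markers CD3E, KDR, ADIPOQ, FABP4 and LEP were further exceptions. These markers had no counts in any library and so were not kept genes. Values of 2 genes of the cascade are not reported here.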

Additional observations from a re-analysis of the deposited data

Results flagged for a closer look

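Among the genes of the group, none had a counting interval below 1 in one line and above 1 in the other. Among the named genes of the 7 pathway lists (up to 4 per list, picked for large folds, and CCND1, picked after its values were seen), 8 did. The difference between the lines was not tested for any of them. Over all kept genes, intervals lay above 1 for 24.8% and below 1 for 25.8% in OE33, and for 23.6% and 29.6% in Eso26. The share of all genes with opposite intervals in the 2 lines was not counted, so nothing is read from the 8. The log2 ratio of siPPARG to control in OE33 minus that in Eso26 was 1.11 for AREG (0.08 in OE33 and -1.03 in Eso26), 1.02 for SPRY1 (0.75 and -0.27), 0.98 for CCND1 (0.44 and -0.54), 0.92 for KLF6 (0.64 and -0.28) and 0.91 for ERRFI1 (0.06 and -0.86). It was 0.78 for ELK4 (0.18 and -0.61), 0.54 for the filamin gene FLNA (0.33 and -0.21) and 0.29 for FHL2 (0.14 and -0.14). All 8 were higher in OE33 siPPARG and lower in Eso26 siPPARG.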

How the results depend on the processing

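Over 8 alternatives of scaling, prior count and expression filter, the counts of genes of the group past 1.5-fold within the lines and past 2-fold between the controls stayed within 1.5 times their values or at 0, and no median of the group changed sign. In Eso26 the medians near 0 of 4 other lists (MAPK phosphatases, EGF receptor ligands, the cascade and the actin cytoskeleton genes) lay above 0 or below 0 depending on the setting. The median log2 fold between the controls was 4.12 with a 1 CPM filter and 4.12 with no filter, where FOS enters, in place of 4.38; with DUSP5 at its bound it was 4.38. Of 197 values of single genes under an alternative, 196 stayed within their counting interval, 1 moved (DUSP5 between the controls, a log2 fold of 11.05 with a prior count of 5) and 0 reversed. With no filter, 2135 of all genes were lower and 1557 higher past 1.5-fold in OE33, and 1150 and 2342 in Eso26. No paired analysis was possible because each group has 1 library, and for the same reason no library could be left out. Depth limits FOS in all libraries and DUSP6 in Eso26, where the intervals are wide.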
